A study of Arabidopsis thaliana with 20 samples.

Results

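Blue-light opening signalling and guard cell identity were followed through 9 of the 25410 loci matched on the array. They are the blue light receptors PHOT1 (AT3G45780) and PHOT2 (AT5G58140), the protein kinases BLUS1 (AT4G14480), HT1 (AT1G62400) and CBC1 (AT3G01490), the transcription factor MYB60 (AT1G08810), the myrosinases TGG1 (AT5G26000) and TGG2 (AT5G25980), and AT1G22690. They were chosen by name as genes of light-driven stomatal opening or as markers of guard cells, and every probe whose transcript identifier belongs to one of them was taken. They are measured by 15 of the 43603 probes, and 14 of these probes were tested. The probe left out is a second PHOT1 probe (A_84_P814837), which was well above background on only 6 of the 20 arrays. Where a gene has several probes, values are those of its brightest probe unless stated, and these probes were well above background on all 20 arrays.

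The study measured RNA of whole leaves and of stomata-enriched epidermal preparations in Arabidopsis thaliana under drought. Stomatal and leaf RNA was taken from the T-DNA insertion line bam1, which lacks the beta-amylase BAM1, and from wild-type Col-0, each after 5 days of drought or under control conditions. Stomatal groups held 2 arrays for bam1 drought, 2 for bam1 control, 2 for Col-0 drought and 3 for Col-0 control. Leaf groups held 3 arrays for bam1 drought, 3 for bam1 control, 2 for Col-0 drought and 3 for Col-0 control. Each replicate pooled 5 to 8 plants, and bam1 is a single homozygous insertion line, so a genotype difference is one of this line. The labels give an age of 5 weeks in one field and a higher age in another.

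Stomata open when guard cells take up potassium and swell. In blue light the phototropins PHOT1 and PHOT2 phosphorylate the kinase BLUS1, and the signal ends at proton pumps of the plasma membrane, whose activity drives potassium influx through channels such as KAT1 and KAT2. HT1 is a Raf-like kinase needed for the response of stomata to CO2 and red light, and CBC1 is a kinase of the same family that joins the blue light and CO2 pathways. MYB60 is an R2R3 transcription factor expressed mainly in guard cells and linked to opening in light. TGG1 and TGG2 break down glucosinolates. TGG1 protein is abundant in guard cells, whereas TGG2 is known from idioblasts along the phloem. AT1G22690 is placed by the study's annotation among gibberellin-responsive genes.

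Signals below are log2 of the normalised intensity of a spot, and a difference of 1 is 2-fold. A gene was called where the adjusted p of limma was below 0.05 (Benjamini-Hochberg over all 30626 tested probes) and the change reached 2-fold. The median processed signal of an array, before normalisation, was between 163 and 576. BAM1, which checks the genotype, read 7.36 to 9.71 on the stomatal bam1 arrays. It also read 7.81 on 1 array labelled as Col-0 drought stomata (replicate 2), against 13.47 on the other array of that group. This array, called the low-BAM1 array here, goes against its label. Medians of the 9 genes for drought, genotype and differences between drought responses are therefore repeated without it. A single value is repeated without it where a call changed or the value moved by over 1.5 times. Shares of all probes that use it are given only with it, since leaving it out leaves 1 array in its group. Without it BAM1 differed by -5.42 between bam1 and Col-0 drought stomata, against -2.60 with it. The drought change of BAM1 in Col-0 stomata was -3.01 with this array and -0.18 without it. The study reports a strong fall of BAM1 in guard cells of drought Col-0 plants. Whether the low reading reflects drought or the genotype of the array was not tested.

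**Figure D1:**
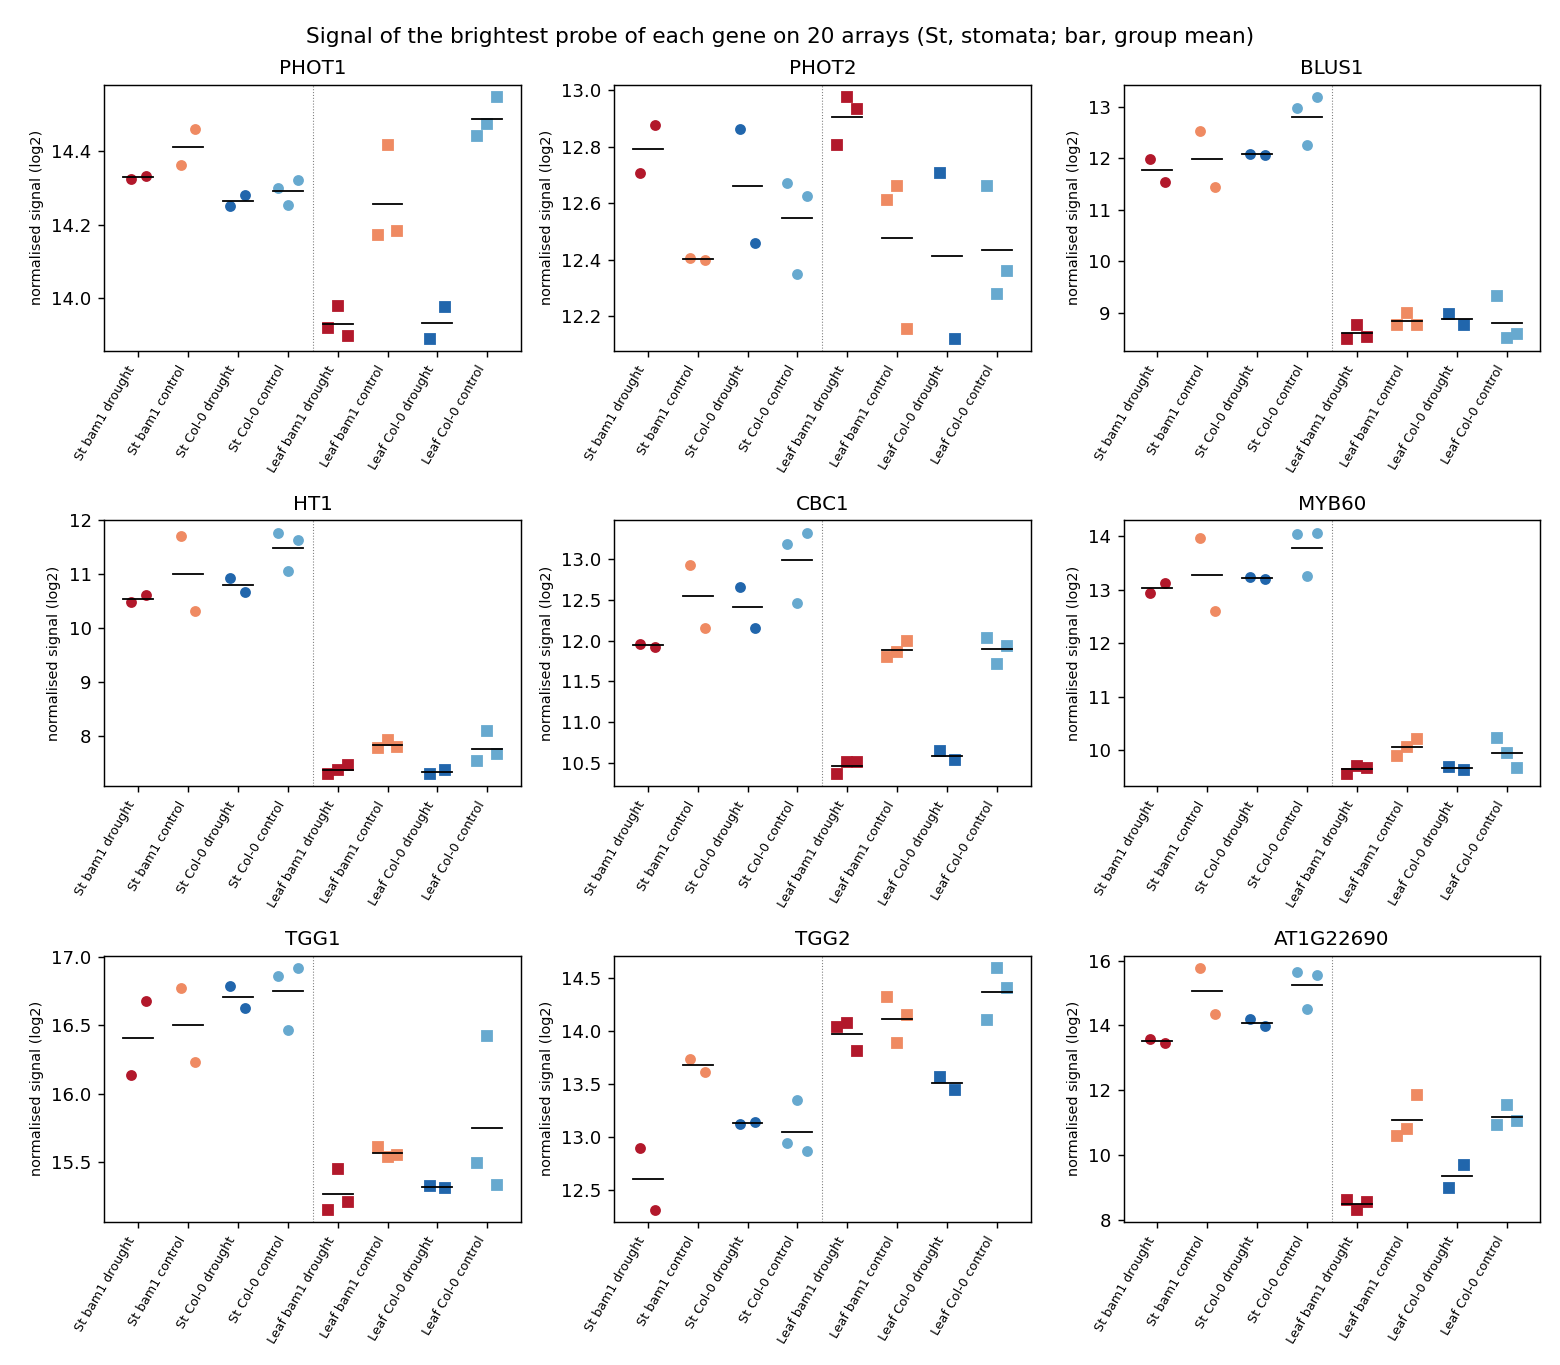
Normalised log2 signal of the brightest probe of each of the 9 genes on every array (points: circles for stomata, squares for leaves) in the 8 groups, with the group mean as a bar. BLUS1, HT1, MYB60 and AT1G22690 were higher on all 9 stomatal arrays than on any leaf array, whereas PHOT1 and PHOT2 lay within a narrow range.

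BLUS1, HT1, MYB60 and AT1G22690 were called higher in stomata than in leaves in each of the 4 comparisons of tissues, by 8.88- to 32.7-fold. CBC1 and TGG1 were enriched to a smaller degree, TGG2 was lower in stomata, and the main probes of both phototropins were not called. In bam1 drought plants 7 of the 9 genes were called (6 higher and TGG2 lower), while 22.9% of all tested probes were, 12.2% higher. In bam1 control plants 4 were called, all higher, with 22% of all probes, 11% higher. In Col-0 drought plants 6 were called, all higher, with 21.2% of all probes, 10.7% higher. Without the low-BAM1 array their log2 values were 3.21 for BLUS1, 3.59 for HT1, 2.06 for CBC1, 3.57 for MYB60, 1.47 for TGG1 and 4.84 for AT1G22690. In Col-0 control plants 6 were called (5 higher and TGG2 lower), with 24.5% of all probes, 11.9% higher. In bulk RNA, a larger share of guard cells and more transcript per cell cannot be told apart.

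PHOT1, the main receptor for weak blue light, read 14.32 and 14.33 in bam1 drought stomata, against 13.92, 13.98 and 13.90 in bam1 drought leaves. Under control conditions it read 14.30, 14.25 and 14.32 in Col-0 stomata, against 14.44, 14.47 and 14.55 in Col-0 leaves. Stomata lay above leaves in the first comparison and below them in the second, without overlap in either. The difference was 0.40 ± 0.10 in bam1 drought plants (SE, adjusted p 0.00417) and 0.16 ± 0.10 in bam1 control plants, where the tissues overlapped (adjusted p 0.211). It was 0.33 ± 0.11 in Col-0 drought plants (adjusted p 0.023), and 0.32 without the low-BAM1 array. In Col-0 control plants it was -0.20 ± 0.09 (adjusted p 0.0745), so that the sign differed between drought and control plants in Col-0 and not in bam1. All were under 2-fold.

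PHOT2, which acts mainly in stronger light, was read by 3 probes, and they disagreed. The brightest (A_84_P816556) read 12.67, 12.35 and 12.62 in Col-0 control stomata, against 12.66, 12.28 and 12.36 in the leaves, so that the tissues overlapped (0.12 ± 0.18, adjusted p 0.608). A second probe (A_84_P500838, assigned to transcript NM_180880) read 7.77, 7.57 and 7.95 in the same stomata, against 6.27, 6.19 and 6.23 in the leaves. On this probe every stomatal array was above every leaf array, and the difference of 1.53 ± 0.17 was called (adjusted p 5.45e-06). It was also called in bam1 drought plants (1.35 ± 0.19) and Col-0 drought plants (1.5 ± 0.21, or 1.41 without the low-BAM1 array). In bam1 control plants the difference reached only 0.92 ± 0.19. The third probe (A_84_P549629) gave 0.76 ± 0.14 in Col-0 control plants (adjusted p 4.22e-04), under 2-fold.

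BLUS1, the direct substrate of the phototropins, read 12.98, 12.26 and 13.19 in Col-0 control stomata, against 9.34, 8.5 and 8.58 in Col-0 control leaves. In bam1 control plants it read 12.54 and 11.45 in stomata, against 8.77, 9.0 and 8.77 in leaves. Replicate 2 was the lowest stomatal array in both genotypes, and yet far above all leaf arrays. The differences were 3.15 ± 0.32 in bam1 (8.88-fold, adjusted p 4.37e-06) and 4.00 ± 0.29 in Col-0 (16.0-fold, adjusted p 1.03e-07). Under drought they were 3.17 ± 0.32 in bam1 and 3.20 ± 0.35 in Col-0.

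HT1, the kinase of the CO2 and red light response, read 11.71 and 10.32 in bam1 control stomata, against 7.78, 7.93 and 7.81 in the leaves, and 11.78, 11.07 and 11.65 in Col-0 control stomata, against 7.55, 8.10 and 7.67 in the leaves. Again no stomatal array approached a leaf array. Stomata exceeded leaves by 3.18 ± 0.30 in bam1 control plants and 3.72 ± 0.27 in Col-0 control plants (13.2-fold, adjusted p 1.12e-07), and by 3.18 ± 0.30 in bam1 and 3.46 ± 0.33 in Col-0 under drought.

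CBC1, the kinase shared by the blue light and CO2 pathways, was enriched to a smaller degree. It read 12.93 and 12.15 in bam1 control stomata, against 11.80, 11.86 and 11.99 in the leaves, and 13.17, 12.46 and 13.32 in Col-0 control stomata, against 12.03, 11.71 and 11.94 in the leaves. All stomatal arrays were above the leaf arrays, but replicate 2 only by a small margin. The difference was 0.65 ± 0.25 in bam1 (adjusted p 0.0417, under 2-fold) and 1.09 ± 0.22 in Col-0 (adjusted p 7.98e-04). Under drought it was 1.48 ± 0.25 in bam1 and 1.81 ± 0.27 in Col-0 (adjusted p 2.32e-04 and 1.17e-04), with lower signals in the drought leaves. The call in Col-0 controls ended without stomata Col-0 control replicate 3 (0.92) or replicate 1 (just below 2-fold), and without stomata bam1 control replicate 2 the difference in bam1 was 1.04 and was called.

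MYB60 was read by 2 probes that agreed. The brighter read 13.96 and 12.59 in bam1 control stomata, against 9.90, 10.06 and 10.22 in the leaves. In Col-0 control plants it read 14.04, 13.25 and 14.06 in stomata, against 10.23, 9.96 and 9.68 in the leaves. Stomata and leaves did not overlap in any of the 4 comparisons. Its enrichment in Col-0 control plants was 3.83 ± 0.28 (14.2-fold, adjusted p 1.19e-07), and the second probe gave 3.83 ± 0.31. In the other 3 comparisons the brighter probe gave 3.22 to 3.55.

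The 2 myrosinases went opposite ways. TGG1 read 16.77 and 16.23 in bam1 control stomata, against 15.61, 15.54 and 15.55 in the leaves, and 16.86, 16.46 and 16.92 in Col-0 control stomata, against 15.49, 16.42 and 15.33 in the leaves. Stomata were higher on every array, but leaf Col-0 control replicate 2 almost reached the lowest stomatal array. TGG1 was called in bam1 drought plants (1.14 ± 0.27, adjusted p 0.00335) and in Col-0 drought plants (1.39 ± 0.30, adjusted p 0.00187). In control plants it missed 2-fold, at 0.93 ± 0.27 in bam1 and 0.999 ± 0.24 in Col-0. It was called in Col-0 controls under 7 of 17 alternatives (1.02 to 1.37) and in bam1 controls under 1, without stomata bam1 control replicate 2 (1.21). Its other probes A_84_P809212 and A_84_P804167 gave 1.28 ± 0.35 and 1.24 ± 0.29 in Col-0 control plants and were called there, but were not called in either comparison of bam1. The call in bam1 drought plants ended when slide was fitted as a block (0.60), under the 75th percentile shift (0.86), as a mean over probes (0.94) and without stomata bam1 drought replicate 2 (0.87).

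TGG2 read 12.90 and 12.31 in bam1 drought stomata, against 14.03, 14.08 and 13.81 in bam1 drought leaves. It read 12.94, 13.35 and 12.86 in Col-0 control stomata, against 14.11, 14.60 and 14.41 in Col-0 control leaves. In both comparisons every stomatal array was below every leaf array, by -1.37 ± 0.20 (adjusted p 7.45e-05) and -1.32 ± 0.18 (adjusted p 2.61e-05). In bam1 control plants and Col-0 drought plants the differences of -0.44 ± 0.20 and -0.37 ± 0.22 were not called. TGG1 and TGG2 are close paralogues, and how far a probe of one also binds transcripts of the other is not known from these files.

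AT1G22690 had the highest enrichment of the 9 in each comparison. In bam1 drought plants it read 13.57 and 13.46 in stomata, against 8.61, 8.30 and 8.53 in leaves. In Col-0 control plants it read 15.66, 14.51 and 15.56 in stomata, against 10.91, 11.55 and 11.06 in leaves. The lowest stomatal array of all lay above the highest leaf array. Stomata exceeded leaves by 5.03 ± 0.44 in bam1 drought plants (32.7-fold, adjusted p 1.18e-06), 3.97 ± 0.44 in bam1 control plants, 4.74 ± 0.49 in Col-0 drought plants (26.7-fold) and 4.07 ± 0.40 in Col-0 control plants (16.8-fold, adjusted p 1.41e-06). Without the low-BAM1 array the Col-0 drought value was 4.84.

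**Figure D2:**
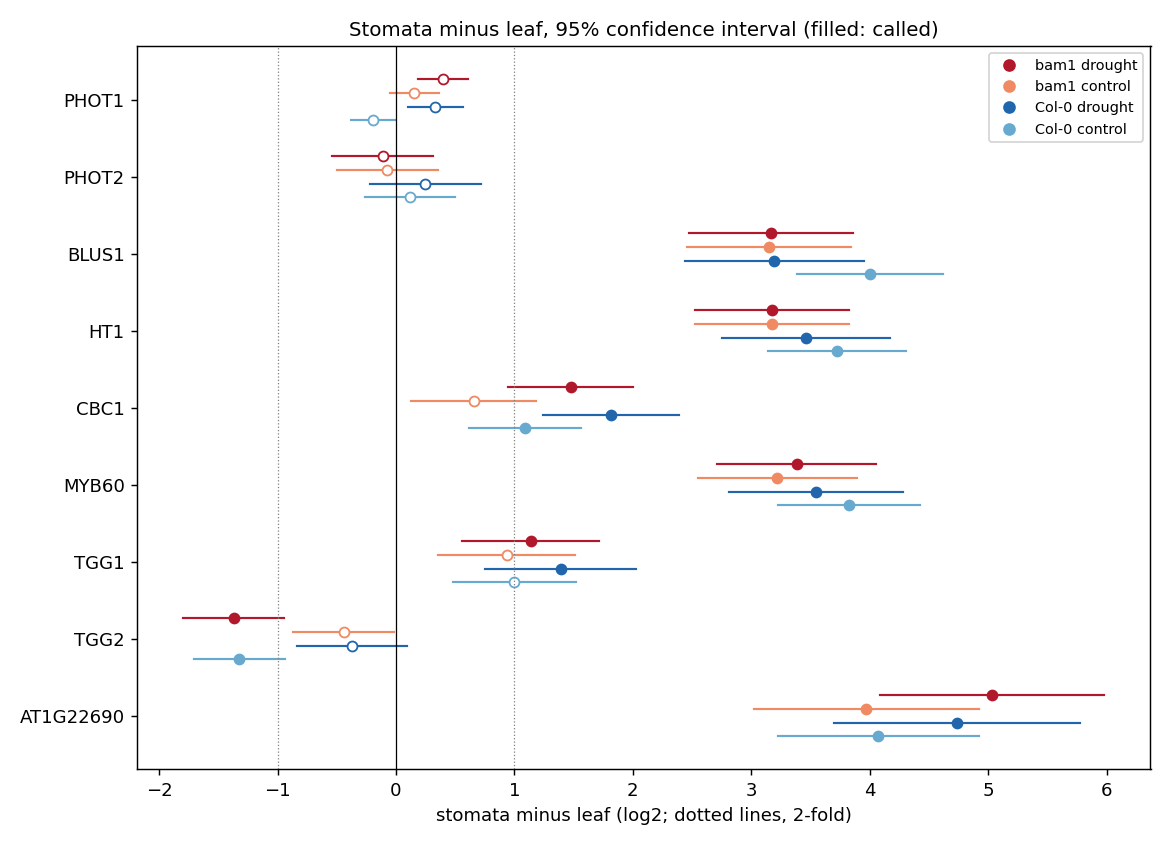
Stomata minus leaf (log2) for the 9 genes in bam1 drought, bam1 control, Col-0 drought and Col-0 control plants, with 95% confidence intervals. Filled points were called and dotted lines mark 2-fold. BLUS1, HT1, MYB60 and AT1G22690 lay between 3.15 and 5.03, and TGG2 lay below 0 throughout.

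The preparations themselves were checked with independent markers. Of 8 guard cell markers (KAT1, KAT2, SLAC1, GORK, ALMT12, OST1, FAMA and SCAP1), all were called higher in stomata than leaves in control plants of bam1 and Col-0, with a median of 2.23 in bam1 and 2.98 in Col-0, and 7 were called under drought. None of the 5 tested mesophyll markers was called in any comparison of tissues, and their median difference lay between 0.07 and 0.38 (-0.05 in Col-0 drought plants without the low-BAM1 array). One of them, CA1, is also a gene of CO2 signalling, and whether guard cells express these markers was not tested. Of 7 epidermis markers, none was called between tissues in Col-0 control plants (median difference 0.22). In bam1 control plants PDF1 was called higher in stomata (median of the 7 markers 0.75). Under drought 2 were called higher: PDF1 and LTP1 in bam1 (median 0.75), and FDH and PDF1 in Col-0 (median 0.86). PDF1 itself fell under drought in the leaves of both genotypes. The part of other epidermal cells in the enrichment of BLUS1, HT1, MYB60 and AT1G22690 was not tested. Among 8 vascular markers, 4 (APL, SUC2, AHA3 and PP2-A1) were called higher in stomata in each comparison, and XCP1 was called lower in each. SWEET12 was called lower in stomata in control plants of both genotypes, and not under drought. The summed vascular signal was 186839 to 351270 on stomatal arrays and 58876 to 76387 on leaf arrays. The part of vascular RNA in the results for TGG1 and TGG2 was not tested. In Col-0 control plants, stomata and leaves shared 1 slide with 1 array each: the differences within it were 3.64 for BLUS1, 4.23 for HT1, 1.15 for CBC1, 3.81 for MYB60, 1.37 for TGG1, -1.17 for TGG2 and 4.75 for AT1G22690.

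Under drought CBC1 and AT1G22690 fell in the leaves of both genotypes and TGG2 fell in bam1 stomata. In leaves, CBC1 and AT1G22690 were called lower in both genotypes, 2 of 9 in bam1 with 4.87% of all tested probes called (3.45% lower) and 2 of 9 in Col-0 with 5.46% (3.37% lower). In stomata 1 of 9 was called in bam1 (TGG2, with 5.77% of all probes, 3.06% lower) and 0 of 9 in Col-0 (3.41% of all probes, 1.62% lower). In Col-0 stomata limma gave 4 of 9 an unadjusted p under 0.05, and the methods' t-test called 0 as well. The share of all tested probes at that unadjusted level was not computed, so this count of 4 has no background beside it. No member was called higher under drought in any of the 4 comparisons. The median change of the 9 was -0.33 in bam1 leaves and -0.43 in Col-0 leaves, and -0.24 in bam1 stomata and -0.57 in Col-0 stomata, whereas the median of all tested probes lay between -0.01 and 0.03. The median of the 9 in Col-0 stomata was -0.32 without the low-BAM1 array, and that of all probes 0.05.

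**Figure D3:**
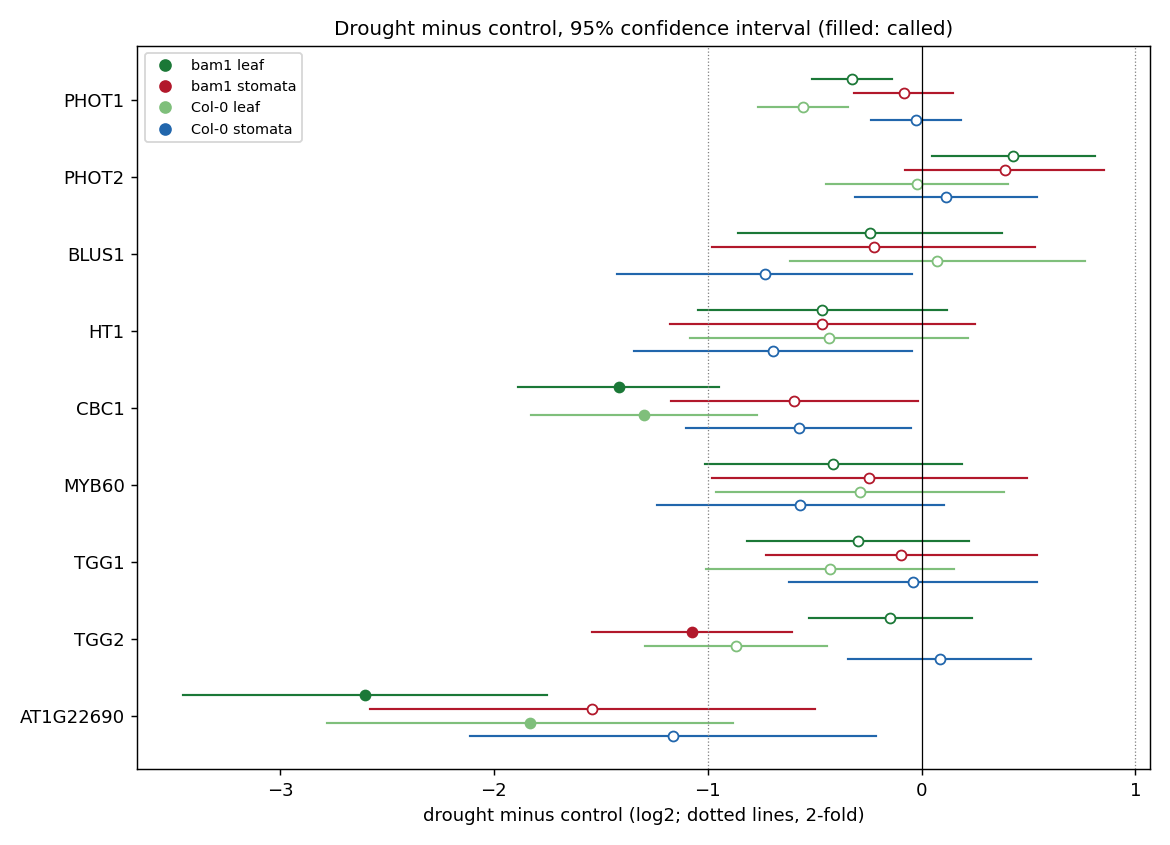
Drought minus control (log2) for the 9 genes in bam1 leaves, bam1 stomata, Col-0 leaves and Col-0 stomata, with 95% confidence intervals. Filled points were called and dotted lines mark 2-fold. CBC1 and AT1G22690 in leaves and TGG2 in bam1 stomata were called, and PHOT2 was the only gene whose estimates were mostly above 0.

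CBC1 read 10.37, 10.51 and 10.52 in bam1 drought leaves, against 11.80, 11.86 and 11.99 in bam1 control leaves. In Col-0 it read 10.65 and 10.54 in drought leaves, against 12.03, 11.71 and 11.94 in control leaves. The drought arrays of both genotypes were at least 1 log2 unit below every control array, with little spread. It fell by 1.42 ± 0.22 in bam1 (2.67-fold, adjusted p 7.16e-04) and fell by 1.30 ± 0.25 in Col-0 (2.46-fold, adjusted p 0.00293). Within a slide holding 1 array of each condition, the differences were -1.47 in bam1 and -1.37 in Col-0. In stomata CBC1 read 11.96 and 11.92 in bam1 drought plants, against 12.93 and 12.15 in bam1 control plants, and 12.66 and 12.16 in Col-0 drought plants, against 13.17, 12.46 and 13.32 in Col-0 control plants. The stomatal changes of -0.60 ± 0.27 in bam1 and -0.57 ± 0.25 in Col-0 (adjusted p 0.176 and 0.174) did not pass, and the Col-0 value was -0.32 without the low-BAM1 array. The difference between the stomatal and the leaf response was 0.82 ± 0.35 in bam1 and 0.72 ± 0.35 in Col-0, and neither passed (adjusted p 0.473 and 0.284). The Col-0 difference was 0.97 without the low-BAM1 array.

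AT1G22690 had the largest drought change of the set. It read 8.61, 8.30 and 8.53 in bam1 drought leaves, against 10.59, 10.81 and 11.85 in bam1 control leaves, and 8.99 and 9.70 in Col-0 drought leaves, against 10.91, 11.55 and 11.06 in Col-0 control leaves. Drought arrays were below all controls in both genotypes. The transcript fell by 2.60 ± 0.40 in bam1 (6.07-fold, adjusted p 6.26e-04) and fell by 1.83 ± 0.44 in Col-0 (3.55-fold, adjusted p 0.0131). The differences within a slide were -3.32 in bam1 and -1.92 in Col-0. The Col-0 call ended when leaf Col-0 drought replicate 1 was left out (-1.47, adjusted p 0.145), when slide was fitted as a block (-1.54, adjusted p 0.104) and under the methods' t-test after adjustment (adjusted p 0.134), whereas the bam1 call ended only under that t-test among the alternatives run (adjusted p 0.0529).

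In stomata AT1G22690 was lower on every drought array too. It read 13.57 and 13.46 in bam1 drought stomata, against 15.77 and 14.34 in the controls, and 14.19 and 13.98 in Col-0 drought stomata, against 15.66, 14.51 and 15.56 in the controls. The changes of -1.54 ± 0.49 in bam1 (adjusted p 0.0514) and -1.16 ± 0.44 in Col-0 (adjusted p 0.126) did not pass. The spread came from the control arrays, where replicate 2 was the lowest in both genotypes. Without stomata bam1 control replicate 2 the bam1 change was -2.26 and was called (adjusted p 0.0225), as it was with the 75th percentile shift (adjusted p 0.0359), normexp (adjusted p 0.021), the series matrix values (adjusted p 0.0455) and the mean over probes (adjusted p just under 0.05), and without the low-BAM1 array the Col-0 change was -1.06.

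PHOT1 read 13.92, 13.98 and 13.90 in bam1 drought leaves, against 14.17, 14.42 and 14.18 in the controls, and 13.89 and 13.98 in Col-0 drought leaves, against 14.44, 14.47 and 14.55 in the controls. The groups did not overlap in either genotype, and replicates differed little. The changes of -0.33 ± 0.09 in bam1 (adjusted p 0.0241) and -0.55 ± 0.10 in Col-0 (adjusted p 0.00182) passed the test but not 2-fold. In stomata PHOT1 changed by -0.08 ± 0.11 in bam1 and by -0.03 ± 0.10 in Col-0, with 95% confidence intervals of -0.31 to 0.15 and -0.24 to 0.18. In Col-0 the stomatal and leaf responses differed by 0.53 ± 0.14, with an adjusted p of 0.063, the lowest of the set for that test. Without the low-BAM1 array they differed by 0.51.

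TGG2 read 12.90 and 12.31 in bam1 drought stomata, against 13.74 and 13.62 in bam1 control stomata. It fell by 1.07 ± 0.22 (2.1-fold, adjusted p 0.00568). In Col-0 stomata it read 13.12 and 13.15 under drought, against 12.94, 13.35 and 12.86 in the controls, and the groups overlapped (0.08 ± 0.20, adjusted p 0.855). In leaves the pattern was the other way round: drought arrays of bam1 overlapped the controls (-0.15 ± 0.18), whereas in Col-0 leaves TGG2 read 13.57 and 13.44, against 14.11, 14.60 and 14.41, a change of -0.87 ± 0.20 that passed the test under 2-fold (adjusted p 0.00972). The drought responses of bam1 and Col-0 differed by -1.16 ± 0.30 in stomata (adjusted p 0.528) and by 0.72 ± 0.27 in leaves (adjusted p 0.333), so that neither difference passed. The call in bam1 stomata ended without stomata bam1 drought replicate 2 (-0.78, adjusted p 0.0867), when slide was fitted as a block (adjusted p 0.176), when only the compared groups were fitted (adjusted p 0.182), under the methods' t-test (adjusted p 0.419) and relative to the guard cell markers (-0.91, adjusted p 0.29), and with normexp background correction it missed 2-fold (-0.99).

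MYB60, BLUS1 and HT1, the most stomata-enriched regulators, were not called under drought in any tissue. MYB60 read 12.94 and 13.13 in bam1 drought stomata, against 13.96 and 12.59 in the controls, and 13.24 and 13.20 in Col-0 drought stomata, against 14.04, 13.25 and 14.06 in the controls. In bam1 one control array lay below both drought arrays, and in Col-0 the lowest control array was level with them. The changes were -0.24 ± 0.34 in bam1 and -0.57 ± 0.31 in Col-0 (adjusted p 0.724 and 0.303). BLUS1 changed by -0.22 ± 0.35 in bam1 stomata and -0.73 ± 0.32 in Col-0 stomata, and HT1 by -0.46 ± 0.33 and -0.69 ± 0.30. In Col-0 stomata their 95% confidence intervals reached down to -1.42 for BLUS1 and -1.34 for HT1, so a 2-fold decrease lay within them. Both of these Col-0 intervals lay wholly on the side of a decrease, before adjustment for the number of probes. In bam1 stomata the intervals reached up to 0.53 for BLUS1 and 0.25 for HT1, so no change lay within them. In leaves HT1 read 7.30, 7.37 and 7.46 in bam1 drought plants, against 7.78, 7.93 and 7.81 in the controls, without overlap, at -0.46 ± 0.27 (adjusted p 0.298). TGG1 and PHOT2 were not called either, with changes of -0.43 to -0.04 for TGG1 and -0.02 to 0.43 for PHOT2. In Col-0 stomata without the low-BAM1 array TGG1 changed by 0.04 and PHOT2 by 0.31.

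The stomatal arrays differed in their guard cell signal. Normalised signals of the 8 guard cell markers were summed on a linear scale. The sum was 22899 and 24509 in bam1 drought stomata, against 39695 and 19363 in bam1 control stomata. In Col-0 it was 27570 and 27058 in drought stomata, against 44727, 28171 and 42235 in control stomata. Replicate 2 was the lower array in both control groups, below the drought arrays in bam1 and just above them in Col-0. These are the arrays on which BLUS1, HT1, MYB60, CBC1 and AT1G22690 were lowest among the controls. In leaves the sums were 4779 to 5339 in bam1 drought, 5313 to 6081 in bam1 control, 4932 to 4977 in Col-0 drought and 3935 to 5475 in Col-0 control plants. None of the 8 markers was called under drought in stomata of either genotype, and their median changes were -0.12 in bam1 and -0.53 in Col-0. The Col-0 median was -0.43 without the low-BAM1 array, and KAT2 changed by -1.01 there. The part of the guard cell share in the stomatal drought results was not tested.

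A comparison chosen after the values had been seen gave each gene relative to the mean of these 8 markers on the same array, with the mean of Col-0 control stomata set to 0. Among the 9 stomatal arrays the range of a gene was narrower relative to the markers for MYB60 (0.31, against 1.47 as signal), HT1 (0.49, against 1.46), CBC1 (0.62, against 1.40), BLUS1 (0.85, against 1.74), AT1G22690 (1.65, against 2.31) and TGG1 (0.71, against 0.78). It was wider for PHOT1 (1.44, against 0.21), PHOT2 (1.13, against 0.52) and TGG2 (1.96, against 1.43). The relative values of MYB60 were -0.16 and -0.03 in bam1 drought stomata, against 0.13 and -0.17 in the controls, and -0.05 and -0.04 in Col-0 drought stomata, against -0.01, -0.09 and 0.11 in the controls. Drought and control values of MYB60 overlapped in both genotypes. AT1G22690 stood at -0.99 and -1.16 in bam1 drought stomata, against 0.49 and 0.11 in the controls, and at -0.56 and -0.73 in Col-0 drought stomata, against 0.15, -0.29 and 0.14 in the controls. Its drought values were below the control values in both genotypes, and among the controls its signal was lowest on the 2 arrays with the lowest marker signal. The relative change was -1.37 ± 0.41 in bam1 and -0.64 ± 0.37 in Col-0, and neither passed (adjusted p 0.0924 and 0.23). In leaves the relative changes of AT1G22690 were -2.45 ± 0.34 in bam1 and -2.0 ± 0.37 in Col-0, and those of CBC1 were -1.27 ± 0.22 and -1.47 ± 0.24, all of them called.

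**Figure D4:**
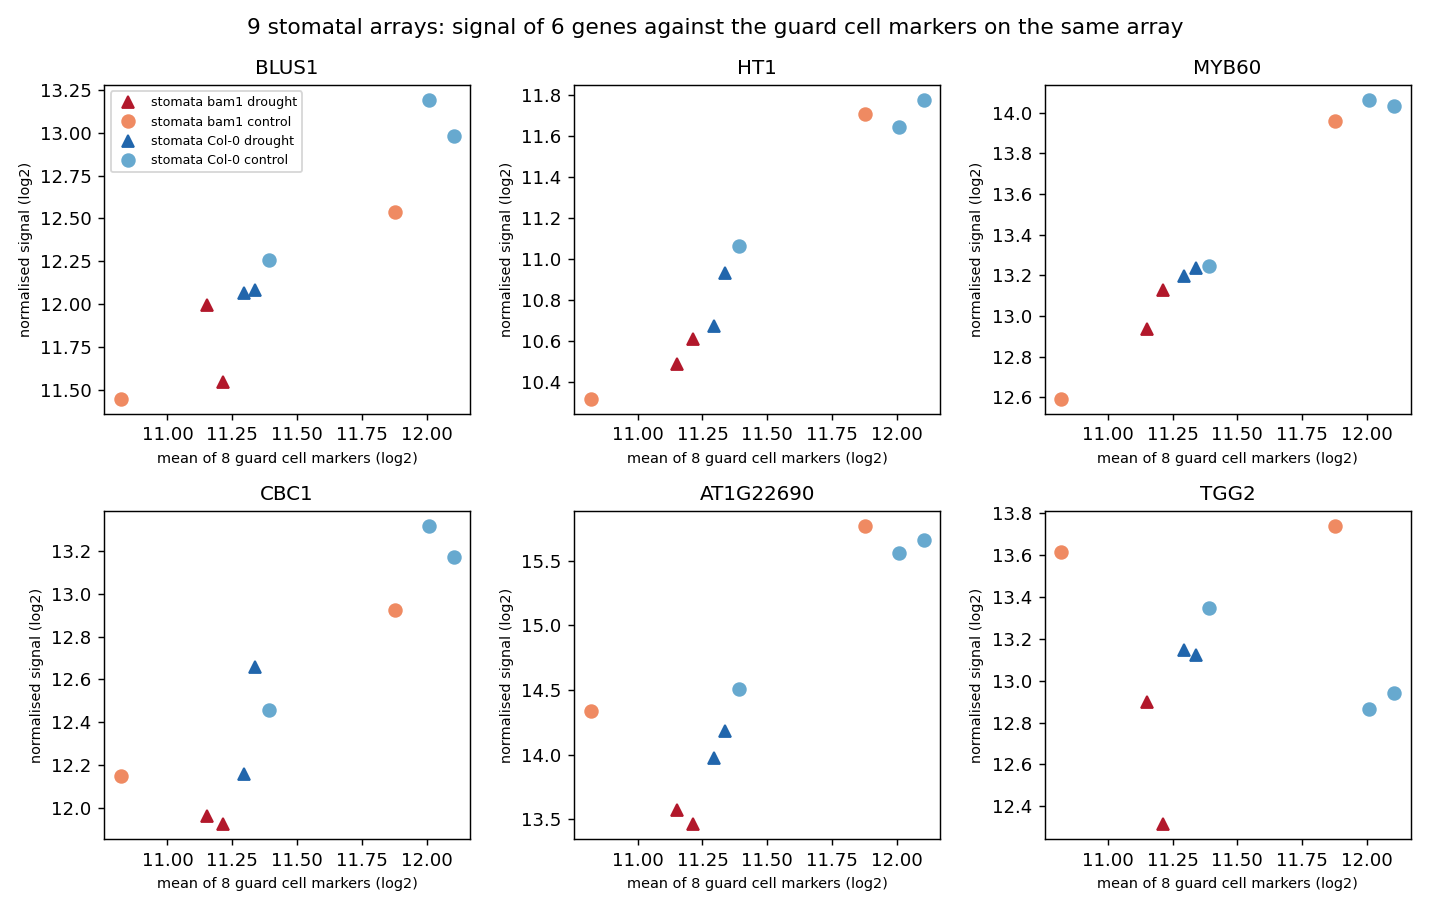
Normalised log2 signal of 6 genes on the 9 stomatal arrays against the mean log2 signal of 8 guard cell markers on the same array (triangles, drought; circles, control; red, bam1; blue, Col-0). BLUS1, HT1 and MYB60 were higher on arrays with more marker signal, AT1G22690 lay lower on all 4 drought arrays than on any of the 5 control arrays and was lowest among the controls on the 2 with least marker signal, and TGG2 showed no such order.

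None of the 9 genes was called between bam1 and Col-0. The background was 0.405% of all probes in control leaves, 0.268% in drought leaves, 0.0588% in control stomata and 0.0196% in drought stomata. At an unadjusted p under 0.05 limma had 1 of 9 in control leaves, 2 in drought leaves, 2 in control stomata and 1 in drought stomata, and the methods' t-test called 0 in each. Without the low-BAM1 array the median difference of the 9 in drought stomata was -0.38, against -0.30 with it. In control stomata BLUS1 differed by -0.81 ± 0.32 in bam1 against Col-0 and TGG2 by 0.63 ± 0.20, with adjusted p of 0.468 and 0.329. TGG2 did not overlap there, at 13.74 and 13.62 in bam1, against 12.94, 13.35 and 12.86 in Col-0. For HT1 and MYB60 the bam1 difference in control stomata depended on 1 array: without stomata bam1 control replicate 1 both were called lower in bam1 (-1.18 and -1.19), and without replicate 2 they were 0.21 and 0.18. No limma test of the difference between 2 drought responses called a member, and 1 or 2 of the 9 had an unadjusted p under 0.05 in each of the 4. The background there was 0.0098% of all probes between genotypes in leaves, 0.0163% between genotypes in stomata, 0.0686% between tissues in bam1 and 1.52% between tissues in Col-0. All these shares, for genotypes too, are of calls. None was computed at an unadjusted p under 0.05, so the unadjusted counts have no background beside them. Between genotypes in stomata the median of the 9 was -0.04 without the low-BAM1 array, against -0.02 with it. Between tissues in Col-0 it was 0.47 without that array, against 0.39 with it.

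Other genes of these pathways were counted from lists that had been drawn up with earlier results known. Among 12 further genes of light signalling, RPT2, a phototropin-interacting protein, was called higher in stomata in bam1 drought (1.08 ± 0.18), bam1 control (1.06 ± 0.18) and Col-0 control plants (1.22 ± 0.16), and PKS1 was called lower in bam1 control stomata (-1.01 ± 0.24). Under drought only AT5G67385 was called, in bam1 stomata (-1.06 ± 0.20). NPH3, the scaffold on which phototropins act, rose in drought stomata by 0.98 ± 0.16 in bam1 and 0.65 ± 0.14 in Col-0. The adjusted p of limma were 0.0013 and 0.0125, but both rises were under 2-fold (0.59 in Col-0 without the low-BAM1 array). NPH3 was chosen for mention after its values were seen.

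Among 7 genes of CO2 and red light signalling, MPK12, a guard cell MAP kinase acting on HT1, and AT4G22790 were called higher in stomata in all 4 comparisons. MPK12 exceeded leaves by 3.15 ± 0.31 in bam1 drought, 2.82 ± 0.31 in bam1 control, 3.05 ± 0.34 in Col-0 drought and 3.61 ± 0.28 in Col-0 control plants, much as HT1 did. OST1, the kinase of abscisic acid signalling, was called higher in control plants only, by 1.31 ± 0.39 in bam1 and 2.32 ± 0.35 in Col-0. None of the 7 was called under drought, and the medians of the list lay between -0.29 and 0.03.

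Of 10 effectors of opening and closing, 6 were called higher in stomata in all 4 comparisons: the anion channels ALMT12 and SLAC1, the potassium channels KAT1, KAT2 and GORK, and the proton pump AHA5. Of these 6, 5 also belong to the guard cell markers. The proton pumps AHA1 and AHA2 were not called in any comparison of tissues. Under drought 1 of the 10 was called: GORK, which carries potassium out of guard cells, rose in Col-0 leaves by 1.12 ± 0.26 (adjusted p 0.0101), and in bam1 leaves it reached 0.78 ± 0.23. KAT2 in Col-0 stomata was not called, and its change without the low-BAM1 array is given above.

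Of 6 further MYB genes, 5 were tested, and only MYB94, a regulator of wax synthesis, was called higher in stomata, by 1.22 ± 0.24 in Col-0 control plants. None was called under drought.

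Among 11 further genes of the myrosinase system 8 were tested, and the myrosinase-binding proteins MBP1 and MBP2 rose under drought in all 4 comparisons. MBP1 read 12.44 and 13.17 in bam1 drought stomata, against 9.92 and 10.84 in the controls, and 14.11, 14.22 and 14.25 in bam1 drought leaves, against 11.93, 12.29 and 11.46 in the controls. In Col-0 it read 12.10 and 12.20 in drought stomata, against 9.89, 9.78 and 9.51 in the controls, and 13.57 and 12.80 in drought leaves, against 10.67, 10.46 and 11.498 in the controls. Drought and control arrays did not overlap in any of them. The rises were 2.42 ± 0.38 in bam1 stomata, 2.30 ± 0.31 in bam1 leaves, 2.43 ± 0.35 in Col-0 stomata and 2.31 ± 0.35 in Col-0 leaves. MBP2 rose by 1.92 ± 0.38 in bam1 stomata, 2.04 ± 0.31 in bam1 leaves, 1.64 ± 0.35 in Col-0 stomata and 2.24 ± 0.35 in Col-0 leaves. Without the low-BAM1 array the Col-0 stomata call of MBP2 ended (1.16), and MBP1 rose there by 2.38. NSP1, a nitrile specifier protein, was called in bam1 leaves (1.33 ± 0.37). In stomata MBP1 was called lower than in leaves in all 4 comparisons (-1.52 to -1.03, with the Col-0 drought call ending without the low-BAM1 array). ESM1 was called lower in control plants of bam1 (-1.03 ± 0.18) and Col-0 (-1.10 ± 0.16), and PEN2 in Col-0 control plants (-1.01 ± 0.24).

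Of 14 genes of the GASA family of gibberellin-responsive peptides 7 were tested, and under drought 2 were called lower in bam1 stomata, 3 in bam1 leaves, 1 in Col-0 stomata and 2 in Col-0 leaves. None was called higher. GASA1 read 13.03 and 12.59 in bam1 drought stomata, against 14.59 and 14.51 in the controls, and 12.76 and 12.72 in Col-0 drought stomata, against 14.24, 14.10 and 14.22 in the controls. These groups were tight and wide apart, with changes of -1.74 ± 0.35 in bam1 (adjusted p 0.00539) and -1.45 ± 0.32 in Col-0 (adjusted p 0.0127). The Col-0 call ended without the low-BAM1 array, at nearly the same value (-1.42). In leaves GASA1 changed by -2.44 ± 0.29 in bam1, which was called, and by -0.95 ± 0.32 in Col-0, which was not. GASA6 was called lower in bam1 stomata (-1.15 ± 0.34), bam1 leaves (-1.73 ± 0.28) and Col-0 leaves (-1.81 ± 0.31), AT2G14900 in bam1 leaves (-1.61 ± 0.42) and GASA4 in Col-0 leaves (-1.08 ± 0.30). One Col-0 control stomata value of GASA6 was missing. Between tissues, GASA14 was called lower in stomata than in leaves in all 4 comparisons (-4.00 to -2.86). AT5G59845 was not well above background on any stomatal array, and was at least 4.53- to 6.76-fold lower in stomata over the 4 comparisons (in bam1 drought leaves 2 of 3 arrays were well above background). Such a bound sets the leaf mean against the signal of the probe on each stomatal array. Where that signal was below the lowest signal well above background on the array, the latter was used. AT2G14900 was called lower in stomata in all 4 comparisons as well, but was well above background on 1 of 2 arrays in bam1 drought stomata, 2 of 2 in bam1 control stomata, 1 of 2 in Col-0 drought stomata and 2 of 3 in Col-0 control stomata. GASA1 was called higher in bam1 drought (1.65 ± 0.32) and Col-0 control plants (1.25 ± 0.29), GASA4 in bam1 drought (1.68 ± 0.30), bam1 control (1.1 ± 0.30) and Col-0 drought plants (1.54 ± 0.32), and GASA6 in Col-0 drought plants (1.64 ± 0.34).

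Across the 8 group means, the genes most similar in pattern to 5 of the members were sought among 19104 genes by Pearson's r, as a description over 8 points that share the split into stomata and leaves. For BLUS1 they were GRP18, a glycine-rich protein (r = 0.999), and HA5, which is AHA5 (0.998). For HT1 they were AT3G48460 and ACR5 (0.999 each), for MYB60 the phosphate exporter PHO1 (0.999) and AT1G24577 (0.999), and for AT1G22690 the loci AT4G16450 (0.998) and AT5G02540 (0.996). CBC1, whose pattern adds a fall in drought leaves, was closest to SAUR63, of a family of auxin-responsive genes (0.996), and to the subtilase SLP3 (0.991). Among the members themselves, BLUS1, HT1 and MYB60 correlated at 0.995 to 0.999, whereas TGG2 ran against MYB60 (-0.74) and PHOT2 was unrelated to BLUS1 (0.06).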

How the data were processed

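RNA was hybridised to 20 one-colour Agilent arrays. The deposited scanner files hold intensity values, per the file headers background-subtracted and detrended by Feature Extraction 11.5.1.1, with 0 or 1 flags (other) for outliers and for signal above background. The deposited series matrix holds log2 values that the authors, per their methods, quantile-normalised and centred on medians; its column medians lay between -0.03 and 0.03. Processed signals were put on a log2 scale, outlier spots were left out, arrays were quantile-normalised and spots of a probe averaged. A probe entered the test where all arrays of 1 or more groups found it well above background (30626 of 43603). Group means were fitted in limma 3.58.1 (R 4.3.3) with eBayes over all 20 arrays, for 16 comparisons: 4 of drought, 4 of tissues, 4 of genotypes and 4 of differences between drought responses. Loci came from a RefSeq table, which matched 34348 probes (78.8%). Replicates were pools of plants, and their number limits the precision. Members and lists were chosen with earlier results of these data known. From the lists, a gene was named where it was called for drought or tissue and was among the 2 highest or 2 lowest of its list there. Alternatives were normalisation to the 75th percentile, normexp (offset 50, median spot signal), no filter, the series matrix, the compared groups alone, slide or replicate number as a block, the mean over probes, each array left out and the methods' t-test. No sequences are given here.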

Additional observations from a re-analysis of the deposited data

How the results depend on the processing

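Of the counts of called members, 252 recomputed values stayed within 1.5 times the reported count and 17 did not. The 252 include counts of 0 that stayed at 0. The tally also holds the fit without the low-BAM1 array for comparisons that do not use it, where the log2 changes could not differ. It is therefore no measure of how stable the calls are. In Col-0 leaves under drought the count of 2 became 1 (CBC1) with slide as a block, 0 with the methods' t-test after adjustment and 1 to 2 with each array left out. In bam1 leaves under drought it became 1 with the adjusted t-test. In bam1 stomata under drought the count of 1 became 2 (TGG2 and AT1G22690) with the 75th percentile, the series matrix and the mean over probes. It became 0 with slide as a block, with the compared groups alone, with the t-test before and after adjustment and relative to the guard cell markers, a setting chosen after seeing the data. With each array left out it was 0 (without stomata bam1 drought replicate 2) to 3 (HT1, TGG2 and AT1G22690, without stomata bam1 control replicate 2), and normexp called AT1G22690 (-1.69) in place of TGG2. Between stomata and leaves, the adjusted t-test called 0 in Col-0 drought plants and 0 in bam1 control plants, and leaving out arrays gave 5 to 7 in Col-0 controls, 6 in Col-0 drought, 4 to 6 in bam1 controls and 6 to 7 in bam1 drought plants. Between bam1 and Col-0 in control stomata, leaving out arrays gave 0 to 2, with HT1 from -1.18 to 0.21 and MYB60 from -1.19 to 0.18. The direction of HT1 under drought in bam1 stomata also turned, from -1.16 to 0.23. The cause of these differences was not tested.

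The replicate numbers did not pair the arrays: same-numbered arrays correlated in their deviations at -0.26 to 0.16. With the replicate number as a block the counts were 2, 0, 2 and 1 for drought in Col-0 leaves, Col-0 stomata, bam1 leaves and bam1 stomata, and the block changed no count of members. The crossed pairing, chosen after seeing the data, called 1 in bam1 stomata under drought and 0 between genotypes in drought stomata. A block on scan date was not run, since all arrays share 1 date. Values for single genes were compared where a gene was called under any setting. Of these, 516 kept their status (called or not called), 28 lost a call, 17 gained a call and 3 changed sign. These too include the fit without the low-BAM1 array for comparisons that do not use it. All brightest probes of the 9 genes were well above background on all 20 arrays, and the number of arrays, 2 or 3 a group, limits the precision.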

Other observations

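Of the 8 vascular markers SWEET12 and SWEET11, sucrose exporters of the phloem, rose under drought in bam1 stomata by 1.69 ± 0.27 and 1.04 ± 0.20 and in Col-0 stomata by 1.95 ± 0.24 and 1.18 ± 0.18 (adjusted p of limma 0.00115, 0.00367, 3.93e-04 and 0.00141). In leaves neither was called: SWEET12 changed by 0.45 ± 0.22 in bam1 and 0.86 ± 0.24 in Col-0, and SWEET11 by -0.08 ± 0.16 and 0.18 ± 0.18. Without the low-BAM1 array the rises of SWEET12 and SWEET11 in Col-0 stomata were 2.13 and 1.34. The summed signal of the 8 vascular markers was 272587 and 351270 in bam1 drought stomata, against 266523 and 186839 in the controls, and 280274 and 237987 in Col-0 drought stomata, against 260417, 235047 and 209627 in the controls. Their median change in stomata was 0.41 in bam1 and 0.17 in Col-0 (0.31 without the low-BAM1 array), and the part of vascular RNA in the rise of SWEET12 and SWEET11 was not tested. In control plants of both genotypes SWEET12 was called lower in stomata than in leaves. SWEET12 and SWEET11 were chosen for mention after their values were seen.

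Of the epidermis markers, CER1, an enzyme of wax alkane synthesis, rose under drought by 1.16 ± 0.25 in bam1 leaves, 1.00 ± 0.28 in Col-0 leaves and 1.37 ± 0.31 in Col-0 stomata, and reached 0.99 ± 0.31 in bam1 stomata (adjusted p of limma 0.0509). Without the low-BAM1 array the Col-0 stomata call ended, at the same value of 1.37. PDF1, a marker of the outer cell layer, fell by 1.44 ± 0.39 in bam1 leaves and fell by 1.81 ± 0.44 in Col-0 leaves. In stomata PDF1 was not called under drought, at -0.36 ± 0.48 in bam1 and 1.1 ± 0.44 in Col-0. The difference between its stomatal and leaf responses was called in Col-0, and that call ended without the low-BAM1 array.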
